A study of Homo sapiens with 8 samples.

Results

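The genes described here encode the machinery that copies DNA in S phase, and they were followed as a set of 41 gene symbols in RKO cells, a human colon carcinoma line. Every probe that the platform annotation of the array assigns to one of these symbols was taken. There were 64 such probes among the 48801 of the array, 61 of them passed the detection filter, which asks for a p under 0.01 against control beads on 2 or more of the 8 arrays, and these covered 40 of the 41 genes. The single probe of CCNE2, cyclin E2, was detected on no array and CCNE2 is not described further. Each gene is represented by its detected probe with the highest mean signal, and the other probes are given where they differ.

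RNA was collected from 4 groups of 2 arrays each. In every group an siRNA was given first, at 100 nM for 24 h, either a non-target one (NC) or one directed at SRCAP, and it was followed by 5-Aza-CdR at 1 µM or by PBS. The exposure is 72 h in the labels and shorter, with a later harvest, in the methods of the study. Whether replicates were grown separately is not stated, so each p-value measures only the spread between these arrays, which may be technical. RKO is 1 cell line, SRCAP is a chromatin remodelling ATPase that puts the variant H2A.Z into nucleosomes, and the NC groups carry siRNA too. The question was whether 5-Aza-CdR lowers the replication genes together and whether the SRCAP siRNA alters that.

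Replication starts at origins, where CDC6 and CDT1 load the ring of MCM2 to MCM7 onto DNA in G1. In S phase CDC45 and the GINS proteins turn this ring into the moving helicase, primase and polymerase alpha lay down primers, and polymerases delta and epsilon extend them on the PCNA clamp. The genes are transcribed together at the G1 to S transition, largely under E2F factors, so their mRNA is commonly read as a measure of proliferation. 5-Aza-CdR is a cytosine analogue that acts only after it has been built into newly replicated DNA, where it traps DNA methyltransferases. In a bulk sample fewer cells in S phase and less RNA per cell cannot be told apart.

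Detected probes numbered 17838 to 19767 on the 8 arrays (36.6% to 40.5%), and replicates correlated at r = 0.983 to 0.993. Values below are normalized log2 signals, and changes are log2 differences ± SE from limma fitted to all 8 arrays. As a check of the knockdown, the only detected SRCAP probe ran from 6.83 to 7.19 with NC siRNA and from 6.46 to 6.73 with SRCAP siRNA. The average difference of -0.47 did not pass the limma test over all probes (adjusted p = 0.172). The study itself reported the knockdown in RKO cells by RT-PCR, and less H2A.Z at the promoters it examined by ChIP. Of 12 colon epithelial markers, EPCAM, KRT8, KRT18 and CDX2 were detected on all arrays, and CDH1, KRT19, CDX1, VIL1, LGALS4 and CDH17 on none. The fibroblast markers were near background, with 6 of 7 detected on no array. Of 6 blood cell markers, PTPRC, CD3E and HBB were detected on none, CD14 on 5 arrays, LYZ on 6 and CD68 on all 8. The summed linear signal of the blood cell list, which includes the widely expressed CD68, ran from 24980 to 29480 over the PBS arrays and from 29513 to 32300 over the 5-Aza-CdR arrays, and that of the colon list from 4942 to 8275 and from 6993 to 11756. Their part in the results below was not tested.

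The promoters of these genes are shown because the members are known as E2F targets and because E2F1 is itself a member. RefSeq promoter windows (GRCh38.p14), 250 bases before to 50 after a start site, matched 35 of the 41 members by symbol. Where a gene had several windows, only the first one listed was used. The windows used were searched on both strands for the E2F words TTTCCCGC, TTTCGCGC, TTTGCCGC and TTTGGCGC, which can overlap each other. At least 1 word stood in 18 of the 35 windows (51.4%), against 5.54% of the 9573 windows of genes with a detected probe and 3.33% of all 27305 windows. The 4 stretches printed lie before the start site, 5′ to 3′ on the strand of the gene, with words in capitals. They are POLA1 (chrX:24693761-24693808, plus strand), which had the lowest average change, MCM6 (chr2:135876502-135876615, minus strand), which held 4 words in 2 overlapping pairs, PCNA (chr20:5126654-5126701, minus strand), whose brightest probe had an average change near 0, and E2F1 itself (chr20:33686386-33686438, minus strand).
POLA1: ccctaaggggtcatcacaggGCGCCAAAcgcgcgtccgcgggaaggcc
MCM6: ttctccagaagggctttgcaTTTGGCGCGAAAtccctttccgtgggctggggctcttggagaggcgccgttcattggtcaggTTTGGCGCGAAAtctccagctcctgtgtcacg
PCNA: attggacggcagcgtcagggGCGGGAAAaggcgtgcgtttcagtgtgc
E2F1: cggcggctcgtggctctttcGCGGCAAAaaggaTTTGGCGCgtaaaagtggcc
A match is a description of the letters and not of a bound site. The 18 members with a word had a median average change after 5-Aza-CdR of -0.32 and the 17 without one a median of -0.33. The presence of a word in the window used therefore did not separate these 35 members by their change. CDC45, POLD1, RRM2, UNG and TIPIN, counted as without a word, have further windows that were not searched. MCM4, MCM5, POLD3, RPA2 and RPA3 were measured but had no matched window and are not in this comparison.

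Averaged over both siRNAs, 38 of the 40 measured members had a lower mean signal with the drug, where 59.2% of all probes were below 0. Their median change was -0.34, or 79.1% of the PBS level, against -0.05 over all 20328 probes and -0.03 over the 11670 genes by their brightest probe. At the level of probes, 57 of the 61 member probes were below 0, with a median of -0.33. Of the 40, only MCM5 was called lower (1 of 40, against 0.295% of all probes). At an unadjusted p under 0.05, 17 members were lower and 0 higher, where 4.89% of all probes were lower and 6.58% higher. With the slide as a replicate block MCM5, POLA1 and POLD3 were called, 3 of 40 against 1.09% of all probes. The plot of the average change places the 40 members beside all probes.

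**Figure D1:**
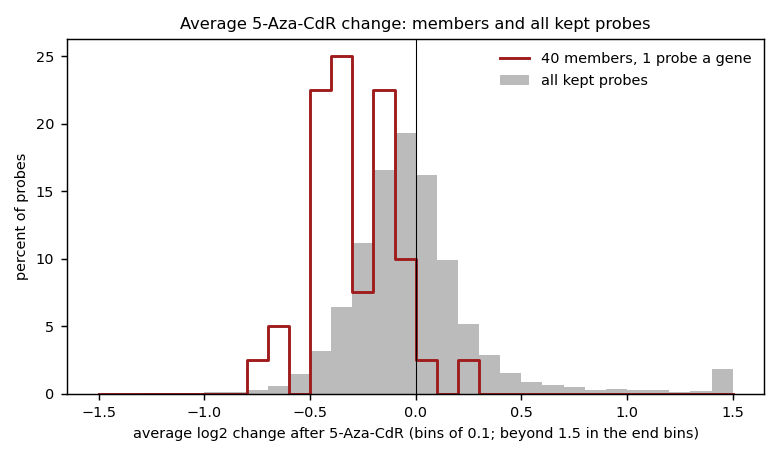
Average log2 change after 5-Aza-CdR over both siRNAs (x axis, bins of 0.1) against the percent of probes in each bin (y axis), for the 40 members by their representative probe (line) and for all 20328 detected probes (grey bars). Most members sit to the left of the bulk of probes, with a median of -0.34 against -0.05, and 2 members lie above 0.

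When each 5-Aza-CdR array was set against the PBS array of the same slide and siRNA, which gives 4 pairs, 19 of the 40 members were lower in all 4 pairs, against 14.4% of all probes. Another 16 were lower in 3 pairs, 3 in 2 pairs and 2 in 1 pair, and 0 members were higher in all 4 pairs, where 11.4% of all probes were. The median over members was -0.46 and -0.29 on slides 1 and 2 with NC siRNA and -0.15 and -0.28 with SRCAP siRNA, whereas the median over all probes was between -0.06 and -0.01 in the 4 pairs. In 11 members all 4 drug arrays read below all 4 PBS arrays (against 2.72% of all probes). These were MCM2, MCM3, MCM5, POLA2, PRIM1, POLD3, POLE2, RFC4, RFC5, UNG and CHAF1A.

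**Figure D2:**
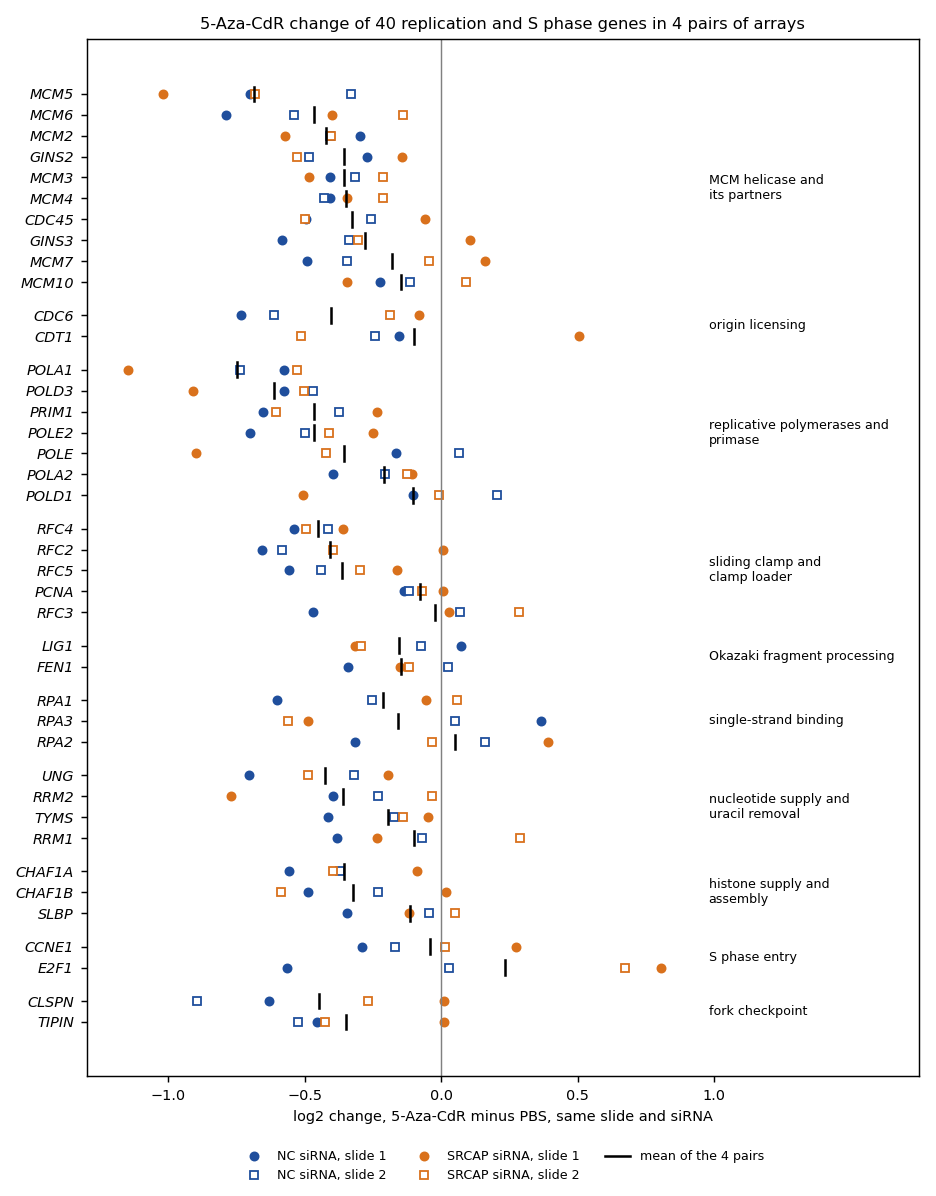
Log2 change after 5-Aza-CdR (x axis) in each of the 4 pairs of arrays of the same slide and siRNA, for the 40 measured members grouped by role (rows). Circles are slide 1 and squares slide 2, blue is NC and orange SRCAP siRNA, and the black bar is the mean of the 4 pairs; 19 members lie left of 0 in all 4 pairs.

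MCM2 to MCM7 encode the ring itself, MCM10 helps to start it, and CDC45 with the GINS subunits GINS2 and GINS3 completes it. All 10 had an average change below 0, from -0.68 to -0.15 with a median of -0.35, and 1 of them, MCM5, passed the test. MCM5 read 11.31 and 11.19 under PBS and 10.61 and 10.86 after 5-Aza-CdR with NC siRNA (slides 1 and 2), and 11.69 and 11.33 against 10.67 and 10.64 with SRCAP siRNA. All 4 drug arrays lay below all 4 PBS arrays. MCM5 fell by 0.68 ± 0.16 on average, to 62.2% of the PBS level (limma, adjusted p = 0.0428, and 0.0171 with the replicate block). It was not called in 9 of 13 other settings, among them each that left out an array, where its adjusted p was 0.0575 to 0.190.

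The signal of MCM6 varied more between slides. It read 14.56 and 13.87 under PBS and 13.77 and 13.33 after the drug with NC siRNA, and 14.29 and 14.05 against 13.89 and 13.90 with SRCAP siRNA. Each drug array was below its own PBS array, but the groups overlapped, since NC with PBS on slide 2 read 13.87. The average change was -0.47 ± 0.20 (adjusted p = 0.382), and it was -0.29 when NC with PBS replicate 1 was left out. The remaining MCM genes gave average changes of -0.42 for MCM2, -0.36 for MCM3, -0.35 for MCM4, -0.18 for MCM7 and -0.15 for MCM10, and the partners gave -0.33 for CDC45, -0.36 for GINS2 and -0.28 for GINS3. MCM3 has a further probe at -0.55 (adjusted p = 0.125, and 0.0414 with the replicate block).

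Origin licensing rests on CDC6 and CDT1, which differed from each other. CDC6 read 8.65 and 8.36 under PBS and 7.92 and 7.75 after the drug with NC siRNA, but 8.76 and 8.70 against 8.68 and 8.51 with SRCAP siRNA. The NC drug arrays were therefore the lowest of the 8, and the SRCAP drug arrays stayed near the PBS level. The change of CDC6 was -0.67 ± 0.22 with NC siRNA (adjusted p = 0.265) and -0.13 ± 0.22 with SRCAP siRNA. CDT1, which is also controlled by degradation of its protein, had an average change of -0.10 ± 0.18, with pairs on both sides of 0.

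The replicative polymerases and primase had the lowest median of the role groups, -0.47, with 7 of 7 genes below 0. POLA1, the catalytic subunit of polymerase alpha, had the lowest average change of all members. It read 11.20 and 10.59 under PBS and 10.63 and 9.86 after 5-Aza-CdR with NC siRNA, and 11.18 and 10.62 against 10.03 and 10.10 with SRCAP siRNA. Slide 2 was lower than slide 1 in both PBS groups, so that the drug and PBS arrays overlapped across slides although every pair was lower. The average change was -0.75 ± 0.23, or 59.6% of the PBS level, and did not pass without the block (adjusted p = 0.157), whereas with the replicate block the adjusted p was 0.0169. A further, dimmer POLA1 probe gave -0.57 (adjusted p = 0.104).

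POLD3, an accessory subunit of polymerase delta, also read lower on slide 2 than on slide 1 in every group. Its signal was 9.22 and 8.71 under PBS and 8.64 and 8.24 after the drug with NC siRNA, and 9.42 and 8.89 against 8.51 and 8.39 with SRCAP siRNA. All drug arrays were below all PBS arrays. The average change was -0.61 ± 0.19 (adjusted p = 0.180, and 0.0264 with the replicate block). A further POLD3 probe was detected on no array.

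PRIM1, the catalytic subunit of primase, read 12.13 and 12.15 under PBS and 11.47 and 11.77 after the drug with NC siRNA, and 11.83 and 12.06 against 11.60 and 11.45 with SRCAP siRNA. Its arrays did not overlap either, and its average change was -0.47 ± 0.15 (adjusted p = 0.206). POLE2, an accessory subunit of polymerase epsilon, read 12.32 and 12.05 against 11.62 and 11.55 with NC siRNA and 12.04 and 12.07 against 11.79 and 11.66 with SRCAP siRNA. The change of POLE2 was -0.47 ± 0.15 on average (adjusted p = 0.186), again with no overlap.

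POLE, the catalytic subunit of the same enzyme, behaved otherwise with NC siRNA. It read 10.17 and 10.22 under PBS and 10.00 and 10.29 after the drug in those cells, where the groups overlapped, and 10.39 and 10.24 against 9.49 and 9.81 with SRCAP siRNA, where they did not. The changes were -0.05 ± 0.22 and -0.66 ± 0.22 (adjusted p = 0.996 and 0.364). POLA2, the second subunit of polymerase alpha, had an average change of -0.21, and POLD1, the catalytic subunit of polymerase delta, one of -0.10.

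**Figure D3:**
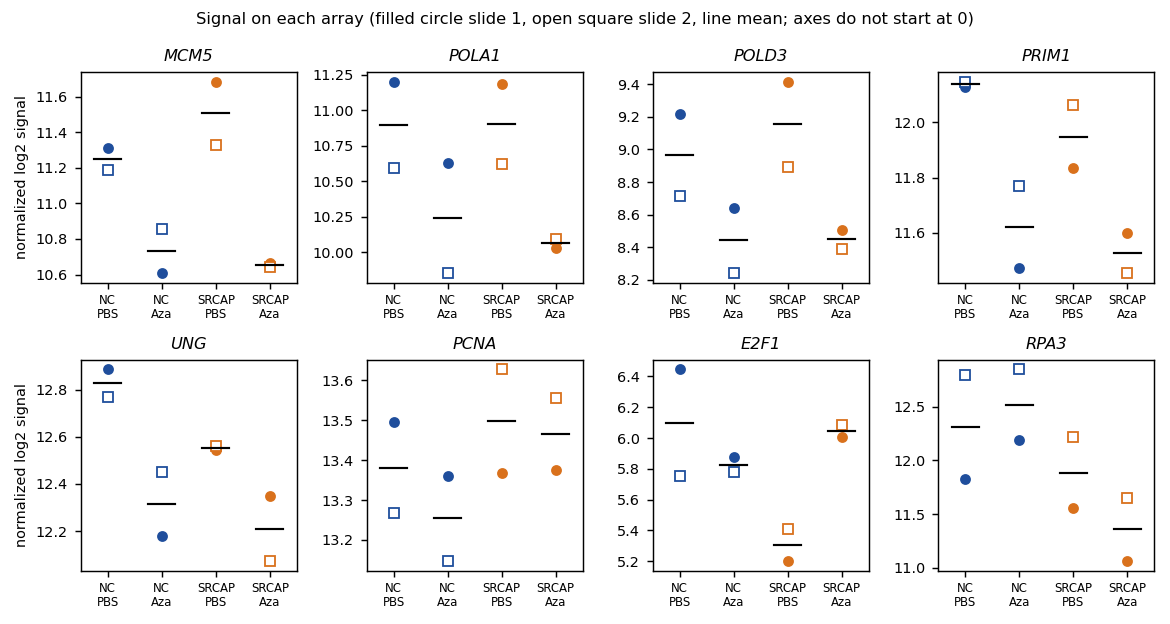
Normalized log2 signal (y axes, which do not start at 0) of 8 members on each array, by group (x axis). Circles are slide 1, squares slide 2 and lines group means; PCNA was added to the members picked by rule. All drug arrays lie below all PBS arrays for MCM5, POLD3, PRIM1 and UNG, and E2F1 is lowest in SRCAP siRNA cells under PBS.

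Among the sliding clamp and its loader, 5 of 5 genes had an average change below 0, with a median of -0.36. RFC4, a subunit of the loader, read 12.60 and 12.83 under PBS and 12.07 and 12.41 after the drug with NC siRNA, and 12.60 and 12.72 against 12.24 and 12.22 with SRCAP siRNA, with no overlap. Its average change was -0.45 ± 0.16 (adjusted p = 0.237), and its other probe gave -0.44. The loader subunits RFC2 and RFC5 had average changes of -0.41 and -0.36.

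RFC3 was the exception among the loader genes. It read 11.40 and 10.48 under PBS and 10.93 and 10.55 after the drug with NC siRNA, and 11.28 and 10.99 against 11.31 and 11.27 with SRCAP siRNA. Those groups overlapped, and the average change was -0.02 ± 0.22. The sign of this value turned when 1 of 3 arrays was left out, and its other probes gave -0.18 and 0.14. PCNA itself, added after its values were seen, gave a different picture by probe: its brightest probe, at 13.15 to 13.63 over the 8 arrays, had an average change of -0.08 ± 0.16, while its dimmer probes had -0.53 ± 0.17 and -0.33 ± 0.20, none of them called.

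Genes that join the new strands or coat single-stranded DNA had small average changes. FEN1, the flap endonuclease, and LIG1, the ligase, which act in turn to join Okazaki fragments, both had an average change of -0.15. RPA1, RPA2 and RPA3 encode the complex that coats single-stranded DNA, and their average changes were -0.21, 0.05 and -0.16. With NC and SRCAP siRNA the changes were -0.43 and 0.0007 for RPA1, -0.08 and 0.18 for RPA2, and 0.21 and -0.53 for RPA3. RPA2 read 13.56 and 13.25 under PBS and 13.24 and 13.41 after the drug with NC siRNA, and 12.99 and 13.18 against 13.38 and 13.15 with SRCAP siRNA. These values overlapped throughout. The 2 probes of RPA1 had opposite signs, -0.21 and 0.05. Of the 16 members with more than 1 detected probe, 14 had the same sign of average change on all of them, and RFC3 and RPA1 did not.

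Nucleotide supply and uracil removal comprised TYMS, which makes thymidylate, the ribonucleotide reductase subunits RRM1 and RRM2, and UNG, which cuts uracil out of DNA. All 4 were below 0 on average, at -0.19, -0.10, -0.36 and -0.43. UNG was the only member besides MCM5 with a called probe. Its brightest probe (ILMN_1683120) read 12.89 and 12.77 under PBS and 12.18 and 12.45 after the drug with NC siRNA, and 12.54 and 12.56 against 12.35 and 12.07 with SRCAP siRNA, which did not overlap but did not pass the test (-0.43 ± 0.15, adjusted p = 0.271).

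A dimmer UNG probe (ILMN_1735719) was called. It read 7.10 and 6.94 under PBS against 6.37 and 6.07 after the drug with NC siRNA, and 7.08 and 7.10 against 6.43 and 5.58 with SRCAP siRNA, and it fell by 0.94 ± 0.20 on average (adjusted p = 0.0300, and 0.00349 with the replicate block). The third UNG probe (ILMN_1722769) was called in NC siRNA cells, with 6.48 and 6.24 under PBS and 5.40 and 5.41 after the drug (adjusted p = 0.0416). It was detected on neither drug array there, so the signal was at least 1.67-fold lower than under PBS. With SRCAP siRNA this probe read 6.24 and 6.14 against 6.17 and 6.02, which overlapped, and the difference between the siRNAs was not called (0.86 ± 0.30, adjusted p = 0.999).

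The histone supply genes were below 0 in 3 of 3 cases: CHAF1A and CHAF1B, subunits of the chaperone that loads histones behind the fork, at -0.35 and -0.32, and SLBP, which binds the stem-loop of replication-dependent histone mRNA, at -0.11. The fork checkpoint genes CLSPN and TIPIN, which relay signals from stalled forks, had average changes of -0.45 and -0.35. CLSPN read 7.78 and 7.42 under PBS and 7.15 and 6.52 after the drug with NC siRNA, and 7.52 and 7.57 against 7.53 and 7.30 with SRCAP siRNA. The NC drug arrays were the lowest of the 8, and the SRCAP drug arrays overlapped with PBS. The average change was -0.45 ± 0.19 (adjusted p = 0.379), and it was -0.29 without NC with 5-Aza-CdR replicate 2.

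CCNE1 and E2F1 act at the entry into S phase. Their changes after the drug were -0.23 and -0.27 with NC siRNA and 0.14 and 0.74 with SRCAP siRNA, none of them called. CCNE1, cyclin E1, the partner of CDK2, read 11.85 and 11.92 under PBS and 11.56 and 11.75 after the drug with NC siRNA, and 11.40 and 11.37 against 11.67 and 11.39 with SRCAP siRNA. Its average change was -0.04 ± 0.15, with the sign turning in 2 leave-one-out fits. E2F1, the founding member of the E2F family, read 6.45 and 5.75 under PBS and 5.88 and 5.78 after the drug with NC siRNA. With SRCAP siRNA it read 5.20 and 5.41 under PBS, where the probe was detected on neither array, and 6.01 and 6.08 after the drug, a level at least 1.27-fold higher. The average change of E2F1 was 0.23 ± 0.18 (adjusted p = 0.755).

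With NC siRNA alone, 38 of the 40 members were below 0 (58.7% of all probes were), with a median of -0.37 against -0.06 over all probes. None was called by limma (0 of 40 by the representative probe, where 0.0541% of all probes were called lower), and the fit with the replicate block called 0 as well. At an unadjusted p under 0.05, 10 members were lower and 0 higher, against 3.26% and 4.9% of all probes. With SRCAP siRNA, 33 members were below 0 (53.9% of all probes), with a median of -0.24 against -0.03. Again 0 of 40 were called lower, with 0.0295% of all probes called, and 0 with the block. At an unadjusted p under 0.05, 4 members were lower and 1 higher, against 2.53% and 5.24% of all probes. The SRCAP median rested partly on SRCAP with 5-Aza-CdR replicate 2, without which it was -0.12.

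The drug changes with the NC and SRCAP siRNAs were set against each other for each member, as plotted for the pair of siRNAs. Of the 40 members, 31 were below 0 with both, where 7323 of all 20328 probes were. Across members the values correlated at Pearson r = 0.207 and Spearman rho = 0.296, against 0.761 and 0.318 across all probes. With NC siRNA the changes ran from -0.76 to 0.21 over the members and from -1.45 to 8.17 over all probes. The Pearson values therefore cover unlike ranges. The changes with both siRNAs were read on the same slides, and genes of the same arrays are not independent replicates. These correlations are a description.

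**Figure D4:**
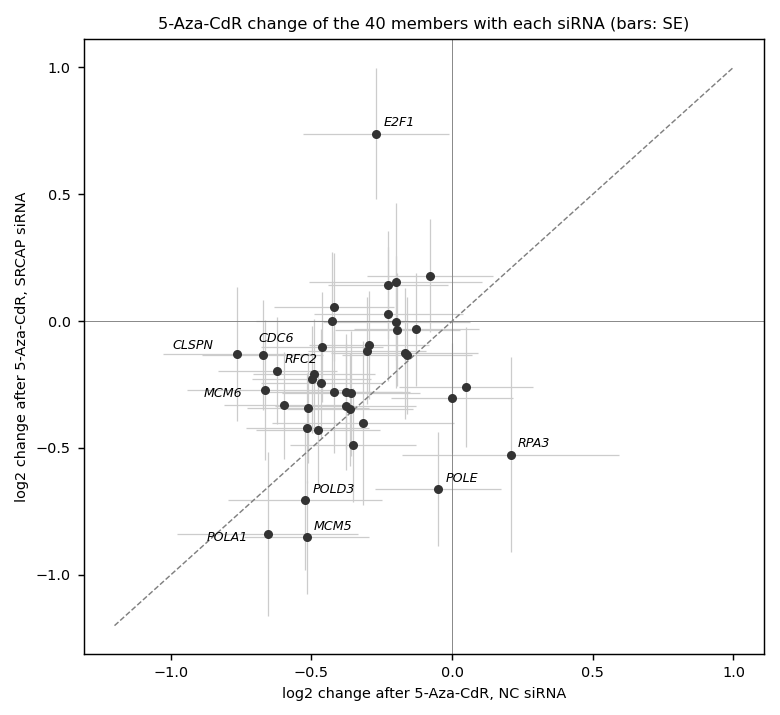
Log2 change after 5-Aza-CdR with NC siRNA (x axis) against that with SRCAP siRNA (y axis) for the 40 members, with SE bars and a dashed line of equal change. 31 members lie below 0 on both axes, where 7323 of all 20328 probes (not drawn) would. Above the dashed line lie 31 members, where 54.7% of all probes would, with E2F1 farthest above it.

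Whether the SRCAP siRNA altered the drug response was tested by the interaction, the drug change with SRCAP siRNA minus that with NC siRNA. It was above 0 in 31 of 40 members, which means a higher value of the drug change with SRCAP siRNA, where 54.7% of all probes were above 0. The median was 0.17 for the members and 0.04 over all probes, and by slide it was 0.38 on slide 1 and 0.06 on slide 2. Leaving out NC with PBS replicate 1 brought it to 0.09, leaving out SRCAP with 5-Aza-CdR replicate 1 brought it to 0.10, and leaving out SRCAP with 5-Aza-CdR replicate 2 brought it to 0.25. No member was called (0 of 40 by limma with and without the block, as for 0% of all probes). At an unadjusted p under 0.05, 0 members were lower and 1 higher, against 1.49% and 0.964% of all probes. With a median SE of 0.32 per gene, differences of the size of the median were not detectable in single genes, and the 95% interval held 0 in 39 of 40.

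The exception was E2F1, with an interaction of 1.01 ± 0.37 (95% interval 0.19 to 1.83, adjusted p = 0.999), which rests on a group where its probe was not detected. CLSPN and CDC6 followed with 0.63 ± 0.37 (-0.20 to 1.47) and 0.54 ± 0.31 (-0.14 to 1.22). In the other direction were RPA3 with -0.73 ± 0.54 (-1.95 to 0.48), POLE with -0.61 ± 0.32 (-1.32 to 0.10) and MCM5 with -0.34 ± 0.32 (-1.04 to 0.37). RPA3, the smallest RPA subunit, read 11.83 and 12.79 under PBS and 12.19 and 12.85 after the drug with NC siRNA, and 11.55 and 12.22 against 11.07 and 11.65 with SRCAP siRNA. Slide 2 was the higher one in every group.

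The SRCAP siRNA was also compared with NC siRNA at each treatment. Under PBS the median of the 40 members was -0.05, with 24 below 0 (50.1% of all probes), and 0 were called with 0.00984% of all probes called in either direction, while the replicate block called 0. At an unadjusted p under 0.05, 2 members were lower and 0 higher, against 4.29% and 2.47% of all probes. This median was -0.20 without NC with PBS replicate 2, 0.02 without NC with PBS replicate 1 and -0.10 without SRCAP with PBS replicate 1. Under 5-Aza-CdR the median was -0.0003, single members ran from -1.16 to 0.76, and 20 were above 0 (53.5% of all probes). The sign of this median turned with the array left out, from -0.06 without SRCAP with 5-Aza-CdR replicate 1 to 0.07 without SRCAP with 5-Aza-CdR replicate 2, and by slide it was 0.13 on slide 1 and -0.01 on slide 2. There 0 members were called, against 0.305% of all probes. At an unadjusted p under 0.05, 1 was lower and 2 higher, against 7.24% and 6.01% of all probes. With the replicate block 2 of 40 were called, where 5.57% of all probes were. They were CDC6 and RPA3, given here with the SE of the limma fit without the block. CDC6 was higher by 0.76 ± 0.22 (adjusted p = 0.206, and 0.0458 with the block). RPA3 was lower, with a change of -1.16 ± 0.39 (adjusted p = 0.274, and 0.00902 with the block). These comparisons use the same arrays as the drug effects.

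Genes of the same process outside the 41 symbols were taken from a list of 56, which holds further origin, polymerase, nucleotide and E2F genes. Of 53 measured, 46 were below 0 on average, with a median of -0.23, and 0 were called lower. Only RRM2B was called, and it rose by 1.56 ± 0.29 (adjusted p = 0.0138). RRM2B encodes a ribonucleotide reductase subunit that p53 induces and that supplies nucleotides outside S phase. It read 11.60 and 10.53 under PBS and 13.08 and 12.07 after the drug with NC siRNA, and 11.95 and 11.31 against 13.10 and 13.38 with SRCAP siRNA. With the replicate block EXO1, an exonuclease of repair (-0.58, adjusted p = 0.0297), and E2F8, a repressor among the E2F factors (-0.86, adjusted p = 0.00632), were also called lower, and POLD4, a small subunit of polymerase delta, higher (0.59, adjusted p = 0.0400).

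Of 34 measured genes of G2 and mitosis, 13 were below 0 on average, with a median of 0.07 and 0 called in either direction. With the replicate block MKI67, a marker of cycling cells, was called lower (-0.57, adjusted p = 0.0375, and 0.0795 without the block). Among 18 measured genes of the p53 pathway and CDK inhibitors, 5 were called higher and 0 lower on average, where 3.39% of all probes were called higher, with a median of 0.13. The list was chosen with earlier results of these data known, and it holds CDKN2A, which the study reported as reactivated by the drug. The replicate block called 6 higher, against 4.34% of all probes, and the sixth was GADD45A (0.64, adjusted p = 0.0234 with the block). CDKN1A, which encodes the CDK inhibitor p21, rose by 1.09 ± 0.16 (adjusted p = 0.00205), with 13.24 and 13.33 under PBS and 14.16 and 14.19 after the drug with NC siRNA, and 12.96 and 12.77 against 14.34 and 13.97 with SRCAP siRNA. GDF15, a secreted stress factor, rose by 1.85 ± 0.21 (adjusted p = 0.000438), and TP53INP1, a p53-induced nuclear protein, by 2.12 ± 0.23 (adjusted p = 0.000299). CDKN2A, which encodes the CDK inhibitor p16 and the MDM2 inhibitor ARF, was detected on none of the 4 PBS arrays and on all 4 drug arrays, and was at least 5.62-fold higher after the drug with NC siRNA and at least 3.40-fold higher with SRCAP siRNA (limma on average, adjusted p = 6.39e-07).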

How the data were processed

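Total RNA was hybridised to 8 Illumina HumanWG-6 v3 arrays. For each probe the deposited intensity is the linear bead signal from BeadStudio 3.0.1, left unnormalized by the authors. The deposited detection p-value compares each signal with the negative control beads of its array. The authors also deposited log2 values after robust spline normalization in lumi, version not given in the sources used here, which served as an alternative.

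Of 48805 probe lines, 2 repeated IDs were left out. The neqc function (limma 3.58.1, R 4.3.3) then applied normexp background correction with an offset of 16, quantile normalization and log2. The offset limits changes of dim probes, but with the background correction the average changes of CLSPN, E2F1, POLD3 and CDC6 were larger than without it. A probe was kept if its detection p was under 0.01 on 2 or more arrays, which left 20328. Symbols came from the platform annotation, brought up to date by gene ID from RefSeq: 27576 probes had 1 symbol, 13 several and 21212 none. The brightest kept probe, by its mean over the arrays, stood for a gene.

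All arrays entered 1 limma fit with a coefficient for each of the 4 groups (4 residual and 5.83 prior degrees of freedom). Tests were two-sided, and a probe was called at a Benjamini-Hochberg adjusted p under 0.05 over all kept probes within the contrast. The procedure was tested on simulated data with independent noise on each array and no slide effect, so that test does not cover the slide. For a probe undetected on both arrays of a group, the fold is a bound against the higher of its own signal and the lowest signal of a detected probe, averaged over the arrays of that group. Replicate numbers pair the samples because the array identifiers in the labels put replicate 1 of every group on 1 slide and replicate 2 on the other; deviations from the group mean correlated between same-slide arrays at 0.00347 to 0.711 over the 6 pairs of groups. The number of arrays limits the precision. Alternatives were the slide as a replicate block, the table of the authors, no background correction, other detection filters, the mean of the probes of a gene, and each array left out.

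Full array values are given for members with a called probe, the 8 lowest and 4 highest average changes, and the 3 largest interactions in each direction; from the other lists, called genes, at most 4 a list. The members and all lists were chosen with earlier results of these data known. No p-value is given for the members as a set.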

Additional observations from a re-analysis of the deposited data

How the results depend on the processing

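The member medians for 5-Aza-CdR with NC siRNA (-0.48 to -0.28), for 5-Aza-CdR averaged over both siRNAs (-0.36 to -0.26) and for the interaction (0.09 to 0.25) kept their direction in all 14 alternatives. Under the other processings of all 8 arrays 19 to 23 members were lower in all pairs and 11 to 13 did not overlap. In the main processing the shares over all probes were 14.4% and 2.72%, and those under the other processings are not given here. Leaving out an array cannot lower these counts of members. The count of members called lower on average was 3 with the slide as a replicate block, where 222 of 20328 probes were called lower. It was 0 among probes detected on all 8 arrays, where 17 of 15611 probes were called lower. Without NC with 5-Aza-CdR replicate 1 the average change of POLA1 was -0.94. The replicate block also raised the count of members changed by SRCAP siRNA under 5-Aza-CdR from 0 to 2, while over all probes it called 222 lower on average in place of 60 and 1132 in place of 62. With 1 array left out the median for 5-Aza-CdR with SRCAP siRNA ran from -0.27 to -0.12 and that for SRCAP siRNA under PBS from -0.201 to 0.0151. For the average SRCAP siRNA effect the limma fit with the replicate block called 3 of 40 members in place of 0. GINS2 (adjusted p = 0.0474) and RPA3 (0.00671) were lower and CDC6 (0.0446) higher. Over all 20328 probes that fit called 1232 lower and 864 higher, in place of 162 and 39. The member counts for 5-Aza-CdR with either siRNA, SRCAP siRNA under PBS and the interaction were 0 in both fits. The cause of these shifts was not tested. The sign of the average change turned with 1 array left out for CCNE1 (range -0.114 to 0.0288), RFC3 (-0.254 to 0.209), RPA2 (-0.0270 to 0.129) and RPA3 (-0.401 to 0.0825). The average change of E2F1 was 0.04 in the authors' table, 0.07 without background correction and 0.06 to 0.41 with 1 array left out. In the authors' table and without background correction, the average change of CLSPN was -0.19 and -0.26. In the same order that of POLD3 was -0.43 and -0.49, and that of CDC6 was -0.26 and -0.30. The cause was not tested.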
